A study of Mus musculus with 6 samples.

Results

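The genes of iron storage and transport were followed through the response of single mouse macrophages to lipopolysaccharide (LPS), with and without the cohesin subunit Rad21. The members were chosen by name as rows of the count matrix: Fth1 and Ftl1, the heavy and light subunits of ferritin; Slc40a1, the iron exporter ferroportin; Tfrc, the transferrin receptor; and Slc11a1 and Slc11a2, transporters of divalent metals. All 6 were present among the 18429 genes of the matrix, and each is described in every group. Transcripts were counted by MARS-seq, a plate-based method in which sorted single cells are barcoded and each transcript molecule is counted once by its unique molecular identifier (UMI).

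The cells were bone marrow-derived macrophages, grown from marrow in L929-conditioned medium, of Rosa26-ERt2Cre mice, of a mixed background that included C57BL/6, that carried either Rad21 WT/WT or Rad21 lox/lox alleles, with mice of both sexes aged 6 weeks to 6 months. Both genotypes received 4-hydroxytamoxifen on day 4, so that wild-type cells also carried the Cre recombinase, which is driven from the ubiquitous Rosa26 locus, and had also seen the inducer. On day 7 the cells were left untreated or were given 10 ng/ml of LPS for 2 or 8 h. This gives 6 groups. After removal of 17 very deep wells, described below, they held 238 untreated wild-type cells, 181 at 2 h and 253 at 8 h, and 267 untreated Rad21-/- cells, 184 at 2 h and 222 at 8 h. Each group is 1 sample. No difference between groups therefore has a replicate check, no test was run, and the 95% intervals below cover counting error only.

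Iron is held inside cells in ferritin, a shell built from heavy chains, which oxidise the metal, and light chains, which help the mineral core to form. Macrophages are the main site at which iron from old red cells is recovered, and ferroportin is the only known route by which they give it back to plasma. During infection and inflammation macrophages are known to withhold iron from microbes. Part of the control of these genes is exerted on the mRNA: iron regulatory proteins bind hairpins called iron-responsive elements and block translation when the hairpin lies in the 5′ UTR, or protect the transcript from decay when it lies in the 3′ UTR.

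The iron-responsive elements are shown because they divide the members in which they were found. Storage and export genes carried the element before the coding sequence, and an uptake gene carried it after. The sequences below come from the GENCODE M1 transcripts, and capitals mark the hairpin loop, CAGTGN. The search required an unpaired C, a stem of 5 paired bases in which G-T pairs were allowed, and the loop with A, C or T as its last base. Read 5′ to 3′ over 30 bases, the elements found in the 5′ UTR were
Fth1: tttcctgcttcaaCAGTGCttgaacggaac
Ftl1: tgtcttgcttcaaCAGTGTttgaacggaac
Slc40a1: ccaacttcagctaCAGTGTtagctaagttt
and those in the 3′ UTR of Tfrc were
Tfrc element 1: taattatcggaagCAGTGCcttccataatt
Tfrc element 2: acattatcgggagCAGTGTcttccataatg
Tfrc element 3: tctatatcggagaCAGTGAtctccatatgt
Tfrc element 4: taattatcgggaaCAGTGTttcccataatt
The same pattern was met in the 5′ UTR of 22 of 19854 genes (0.111%) and in the 3′ UTR of 92 of 19915 genes (0.462%). No match was found in the annotated UTRs of Slc11a1 or Slc11a2, which says only that this pattern is not in those transcript models. An element whose 5 stem bases do not all pair would have been missed, so these 2 genes may still carry one. UMI counts measure the amount of mRNA and carry no information on binding to these elements or on translation.

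On GRCm38.p6, Fth1 lies on chromosome 19 (9980600 to 9985111), Ftl1 on chromosome 7 (45457944 to 45459886), Slc40a1 on chromosome 1 (45908070 to 45926532), Slc11a1 further along chromosome 1 (74375014 to 74386057), Tfrc on chromosome 16 (32608896 to 32632794) and Slc11a2 on chromosome 15 (100387898 to 100424209). RefSeq promoter windows, from 250 bases before to 50 after the start, were given for Fth1, Ftl1, Tfrc and Slc11a1. They were searched on both strands for the antioxidant response element core TGACNNNGC, the E-box CACGTG, the interferon-stimulated response element core GAAANNGAA and the NF-kappaB consensus. The last was the only motif found: in the window of Ftl1, chr7:45459837-45460136 on the minus strand of GRCm38.p6, the letters tctcgggcctGGGGCACCCCtccctccgga hold a match in capitals that starts 15 bases before the gene start. A match to this consensus was present in 8.46% of all 32851 windows of that length, against 12.4% for the antioxidant element core, 7.15% for the E-box and 8.56% for the interferon element core, and it is a description of letters, not of binding.

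Depth and labels were checked first. Cells held a median of 5544 to 7043 UMIs per group, and the shallowest held 2106. The 17 deep wells each gave more than 25000 UMIs, up to 496955, and supplied 45.5% of the UMI total of wild-type cells at 2 h, against 1.71 to 17% elsewhere. All values below are from the other 1345 cells unless stated otherwise, as summed UMIs of a gene per 1000000 summed UMIs of the group (CPM), and values with all wells are given where they differ. Of the 1362 wells, each a barcode within a pool, none appeared in more than 1 group. The cells came from 24 library pools, of which 23 held both genotypes; each pool held a single time point, so that time and pool cannot be told apart, while genotypes could be compared within pools. Pools are technical subdivisions of a sample, and their spread is given over pools with at least 10 cells of the group. Rad21 itself was counted at 64.3, 50.9 and 34.1 CPM in wild-type cells at 0, 2 and 8 h and at 5.46, 8.01 and 6.92 CPM in Rad21-/- cells, in the direction of the labels; whether the counted 3′ end lies in the deleted part of the gene is not given in the sources used here. All 8 macrophage markers examined were detected, at a summed 6214 to 10636 CPM. The listed markers of B cells, T cells, dendritic cells, fibroblasts and neutrophils that could be read summed to at most 32.6 CPM per type. For B cells, T cells and neutrophils this was 1 gene of the 3, 3 and 5 listed. The 6 listed markers of erythroid cells, which also handle much iron, had no row in the matrix, so these cells could not be checked. Mki67 and Top2a, which mark dividing cells, summed to 198, 231 and 28.3 CPM in wild-type cells at 0, 2 and 8 h and to 94.7, 52.9 and 39.8 CPM in Rad21-/- cells.

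**Figure D1:**
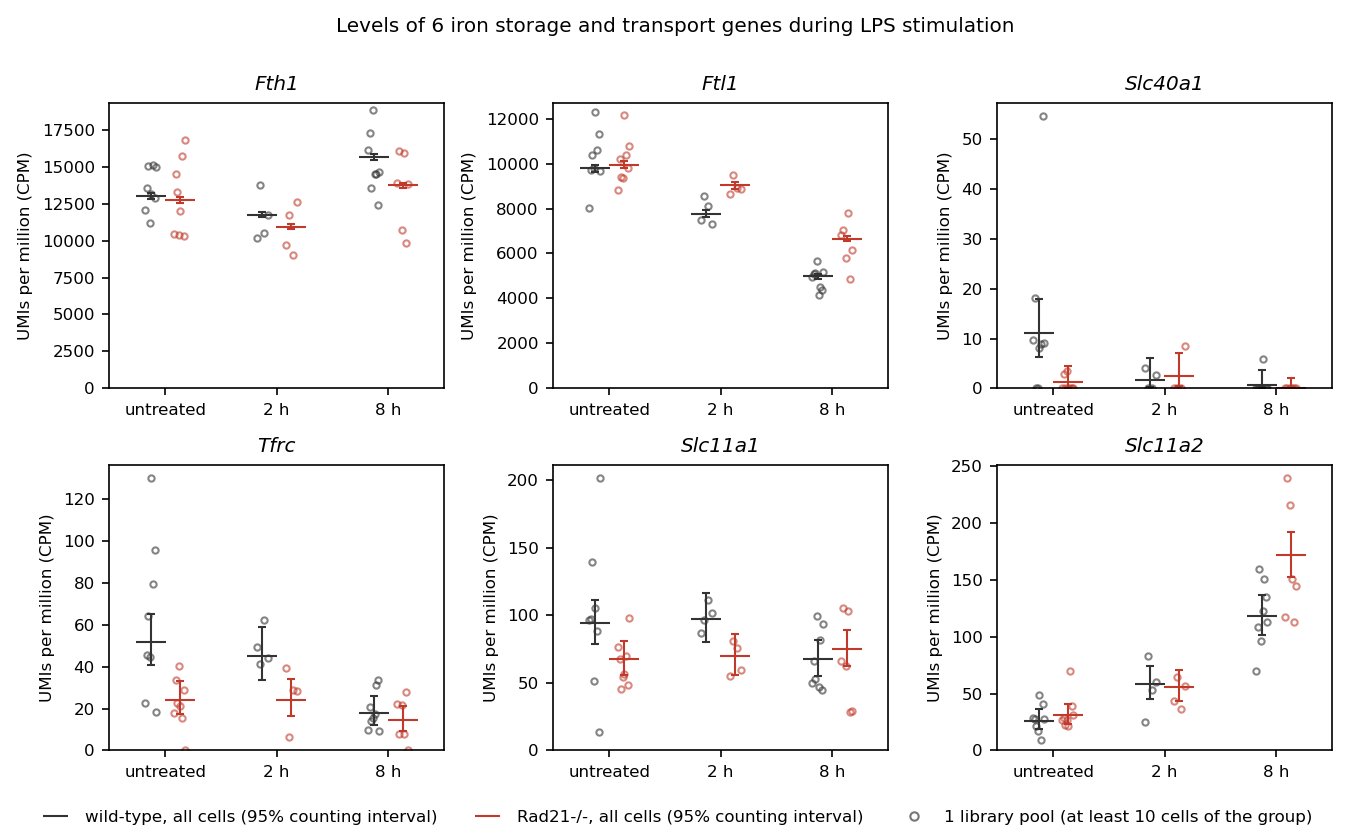
Level of each of the 6 genes in CPM (vertical axis, starting at 0, with its own scale for each gene) in untreated macrophages and after 2 or 8 h of LPS (horizontal axis); wide ticks are all cells of a group with their 95% counting interval, circles are single library pools. Ftl1 pools at 8 h lie below every untreated pool of the same genotype, and Slc11a2 pools at 8 h lie above every untreated pool of the same genotype, whereas the pools of Fth1 overlap at all times.

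Both ferritin subunits were among the most abundant transcripts of these cells, but only the light chain moved past 1.5-fold with LPS. Ftl1 fell in wild-type macrophages to 0.509 of its untreated level at 8 h, while Fth1 stood at 1.20 of its own. In Rad21-/- macrophages Ftl1 stood at 0.669, just short of the 1.5-fold limit, and Fth1 at 1.08. The ratio of heavy to light chain UMIs was 1.33 untreated and 3.15 at 8 h in wild-type cells, against 1.28 and 2.07 in Rad21-/- cells.

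Fth1 ranked 3 among all genes by UMIs in each of the 6 groups. Its level was 13006 CPM (95% interval 12821 to 13193) in untreated wild-type cells, 11764 (11571 to 11960) at 2 h and 15667 (15471 to 15865) at 8 h. Among Rad21-/- cells the level was 12748 CPM (12577 to 12922) untreated, 10942 (10760 to 11127) at 2 h and 13752 (13578 to 13928) at 8 h. The lowest level in either genotype was thus at 2 h and the highest at 8 h. Relative to untreated cells of the same genotype the ratios were 0.905 (0.885 to 0.925) and 1.20 (1.18 to 1.23) in wild-type cells and 0.858 (0.840 to 0.877) and 1.08 (1.06 to 1.10) in Rad21-/- cells, none past 1.5-fold. The counting intervals are narrow because at least 13660 UMIs were counted per group, and the pools spread far more widely. Pools of untreated wild-type cells ran from 11202 to 15096 CPM with a median of 13334, and those at 8 h from 12411 to 18842 with a median of 14588, so that the ranges overlapped. The ranges also overlapped between any pair of neighbours when the groups were ordered by level, from wild-type at 8 h down to Rad21-/- at 2 h. With all wells, Fth1 in the wild-type 2 h group was 7607 CPM, and the 5 deepest wells of that group alone gave 2621 CPM. The 2 h ratio of wild-type cells was then 0.588, past 1.5-fold, and the 8 h ratio of Rad21-/- cells turned to 0.978, as computed with 1 UMI added.

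Comparison of the genotypes for Fth1 gave Rad21-/- to wild-type ratios of 0.980 (0.961 to 1.00) untreated, 0.930 (0.908 to 0.952) at 2 h and 0.878 (0.862 to 0.894) at 8 h. Pool by pool, where both genotypes had 10 cells or more, the Rad21-/- level was the lower one in 5 of 8 pools at rest, in 3 of 4 at 2 h and in 6 of 6 at 8 h. The within-pool ratios at 8 h ran from 0.792 to 0.943, with a median of 0.853. With all wells the ratio at 2 h was 1.35, on the other side of 1.

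A processed copy of the heavy chain gene, the pseudogene Fth-ps2 on chromosome 6 (39653299 to 39653788), has a row of its own, with 1265, 1095 and 1994 CPM over the 3 times for wild-type cells and 1222, 1051 and 1772 CPM for Rad21-/- cells. The 8 h ratio of this row was 1.58 (1.49 to 1.67) in wild-type cells, past 1.5-fold, and 1.45 (1.37 to 1.54) in Rad21-/- cells. Its pools spread widely, from 439 to 2523 CPM in untreated wild-type cells and from 1298 to 3212 CPM at 8 h. Only reads that mapped to a single place were counted, and near-identical sequence means that reads may be split between the rows or lost from both. Whether this split differs between pools was not tested. Summing the rows left the 8 h ratios at 1.24 (1.22 to 1.26) in wild-type and 1.11 (1.09 to 1.13) in Rad21-/- cells. The light chain pseudogene Ftl2-ps held at most 28 UMIs in any group.

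Ftl1 ranked 4 among all genes in untreated cells of both genotypes and 5 at 2 h. At 8 h its rank was 17 in wild-type cells but 7 in Rad21-/- cells. In wild-type cells its level was 9784 CPM (9623 to 9946) untreated, 7770 (7613 to 7930) at 2 h and 4981 (4871 to 5093) at 8 h. The Rad21-/- cells had 9947 CPM (9795 to 10100) untreated, 9031 (8865 to 9199) at 2 h and 6656 (6535 to 6778) at 8 h. The level was lower at each later time in both genotypes. The 2 h ratios were 0.794 (0.774 to 0.815) in wild-type and 0.908 (0.886 to 0.930) in Rad21-/- cells, not past 1.5-fold. The 8 h ratios were 0.509 (0.495 to 0.523) in wild-type cells, a fall past 1.5-fold, and 0.669 (0.653 to 0.685) in Rad21-/- cells, which is 1.49-fold. Pools of wild-type cells at 8 h ran from 4173 to 5651 CPM and untreated ones from 8008 to 12297. The corresponding Rad21-/- ranges were 4877 to 7805 and 8819 to 12172. Neither pair of ranges overlapped.

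At rest the genotypes had similar Ftl1 levels, with a Rad21-/- to wild-type ratio of 1.02 (0.994 to 1.04) and the higher value in Rad21-/- cells in 3 of 8 pools. The ratio was 1.16 (1.13 to 1.19) at 2 h and 1.34 (1.30 to 1.38) at 8 h. Rad21-/- cells were higher in 4 of 4 pools at 2 h, by 1.10 to 1.22-fold, and in 6 of 6 pools at 8 h, by 1.11 to 1.38-fold. None of these ratios passed 1.5-fold, except that with all wells the 2 h ratio was 1.62. Over the groups ordered by level, untreated cells of both genotypes came first and wild-type cells at 8 h last, and the only neighbours whose pool ranges did not overlap were Rad21-/- and wild-type cells at 2 h.

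**Figure D2:**
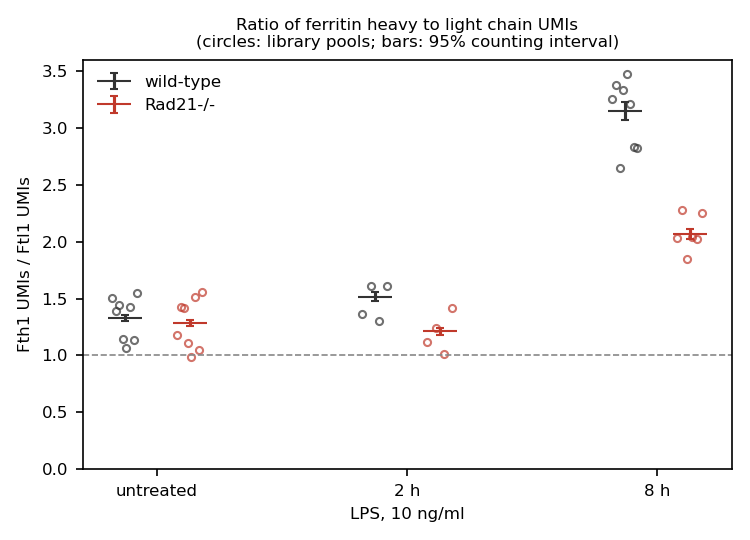
Fth1 UMIs divided by Ftl1 UMIs (vertical axis) in each group over LPS time (horizontal axis); wide ticks are all cells with the 95% counting interval, circles are library pools, and the dashed line marks equal numbers. At 8 h the 8 wild-type pools lie between 2.65 and 3.47 and the 6 Rad21-/- pools between 1.85 and 2.28.

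The ratio of Fth1 to Ftl1 UMIs was 1.33 (1.30 to 1.36) in untreated wild-type cells, 1.51 (1.48 to 1.55) at 2 h and 3.15 (3.07 to 3.23) at 8 h. For Rad21-/- cells the values were 1.28 (1.26 to 1.31), 1.21 (1.18 to 1.24) and 2.07 (2.02 to 2.11). Pool values at 8 h, 2.65 to 3.47 and 1.85 to 2.28, overlapped neither between genotypes nor with the untreated pools, which ran from 1.07 to 1.55 and from 0.986 to 1.56. Both genes together made up 1.95 to 2.28% of all UMIs in every group, so the change lay in their proportion more than in their sum. Both UMI sums come from the 3′ ends of transcripts and differ in how well each gene is captured, so the ratio is comparable between groups but is not a ratio of molecules in a cell.

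The proportion also varied from cell to cell. Every one of the 1345 cells had UMIs of both ferritin genes. More Fth1 than Ftl1 UMIs were counted in 76.5% of untreated wild-type cells, 92.3% at 2 h and 99.6% at 8 h, and in 70.8%, 65.8% and 98.6% of Rad21-/- cells. The median over cells of the ratio in each cell was 1.32, 1.48 and 3.50 over time for wild-type cells and 1.27, 1.21 and 2.08 for Rad21-/- cells. At 8 h the 10th and 90th percentiles over wild-type cells were 1.99 and 7.09, the widest span of any group, against 1.46 and 3.41 over Rad21-/- cells. The 10th percentile at 8 h lay below the 90th percentile of untreated cells, 2.01 in wild-type cells and 1.94 in Rad21-/- cells, so that the ranges over single cells overlapped.

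When each cell was reduced at random to 3800 UMIs, which left out 21 to 47 shallower cells per group, the median cell held 36 Ftl1 UMIs in untreated wild-type cells, 29.5 at 2 h and 17.5 at 8 h. The Rad21-/- medians were 37, 34 and 25. The variance of Ftl1 over its mean, which is 1 for counts that vary by sampling alone, was 3.47, 2.84 and 5.31 over time for wild-type cells and 3.20, 2.52 and 3.23 for Rad21-/- cells, so that wild-type cells at 8 h were the most uneven. For Fth1 the medians over time were 49, 45 and 59 UMIs per wild-type cell and 45, 41.5 and 52 per Rad21-/- cell, and the variance over mean ranged from 3.96 in wild-type cells at 8 h to 7.25 in untreated Rad21-/- cells. Over cells of a group thinned in this way, UMIs of the ferritin genes correlated at a Pearson r of 0.250 to 0.481; this describes cells that share pools and a sample and is given without a test.

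**Figure D3:**
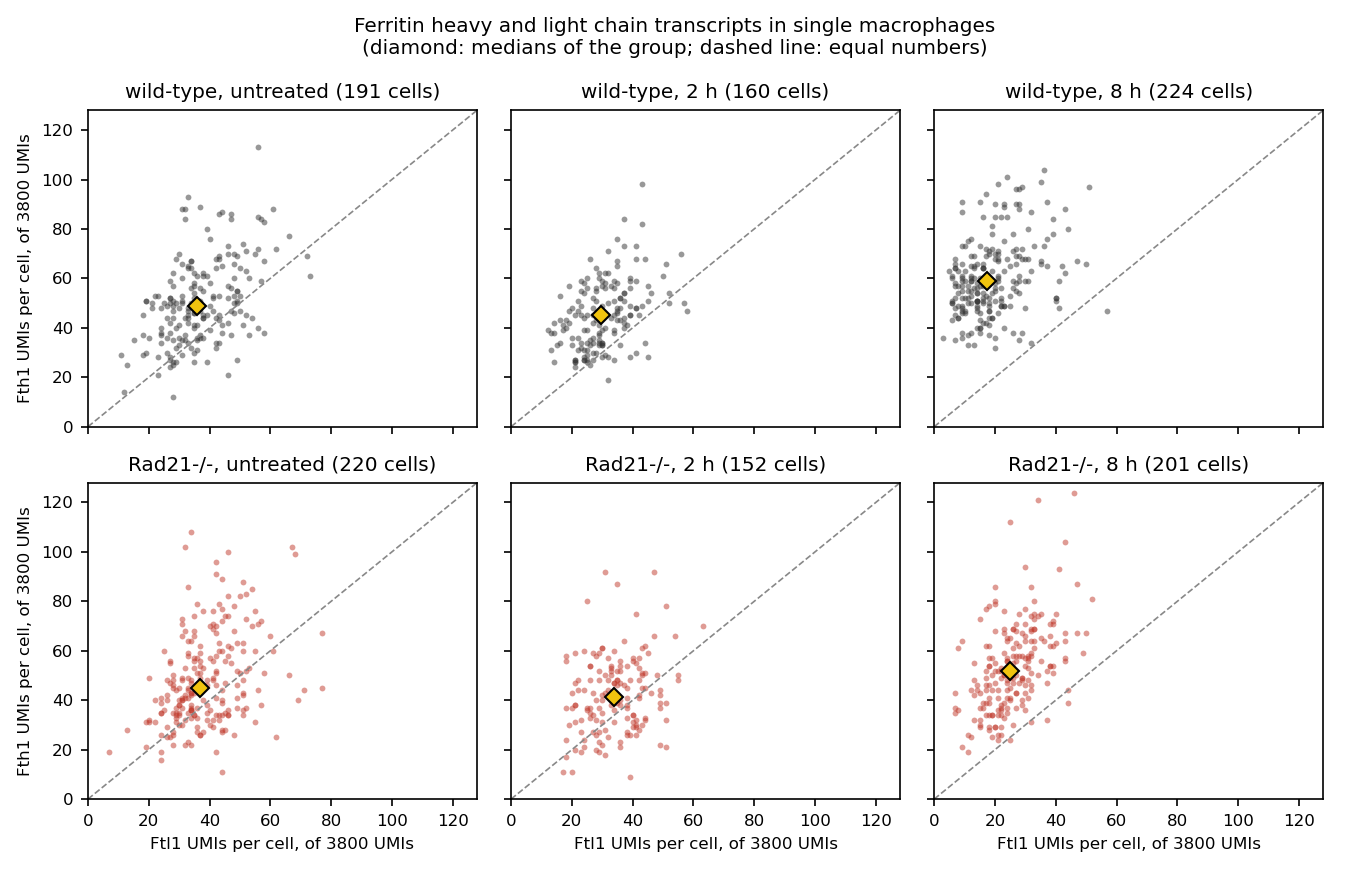
Fth1 UMIs (vertical axis) against Ftl1 UMIs (horizontal axis) in single cells reduced to 3800 UMIs each, 1 panel per group with the number of cells; the diamond marks the group medians and the dashed line equal numbers. The wild-type cells at 8 h sit far to the left of the line, at a median of 17.5 Ftl1 and 59 Fth1 UMIs, and the Rad21-/- cells at 8 h at 25 and 52.

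Ferroportin transcripts were rare, and most of those counted came from untreated wild-type cells. Slc40a1 gave 16 UMIs in 15 of 238 untreated wild-type cells and 2 UMIs in 267 untreated Rad21-/- cells. After LPS, 2 UMIs were counted at 2 h and 1 at 8 h in wild-type cells. The Rad21-/- counts were 3 at 2 h and none at 8 h. The levels were 11.1 CPM (6.33 to 18), 1.67 (0.202 to 6.03) and 0.643 (0.0163 to 3.58) in wild-type cells and 1.21 (0.147 to 4.38), 2.40 (0.496 to 7.02) and 0 in Rad21-/- cells. A count of 0 at this depth allows up to 1.73 CPM when 3 UMIs are taken as the floor (exact 95% upper limit 2.13), and 0 of 222 cells allows a share of up to 1.35% (exact limit 1.65), which bounds cells with a UMI and not cells that express the gene. The gene was below the filter of 100 UMIs in each comparison, so it entered no count of changed genes.

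The share of cells with a Slc40a1 UMI was 6.30% (3.57 to 10.2) in untreated wild-type cells against 0.749% (0.0908 to 2.68) in untreated Rad21-/- cells, and after thinning 4.71% (2.18 to 8.76) against 0.455% (0.0115 to 2.51). The ratio of the levels was 0.110 (0.0122 to 0.466) for Rad21-/- against wild-type cells at rest. For 2 and 8 h of LPS against untreated wild-type cells it was 0.151 (0.0168 to 0.642) and 0.0581 (0.00138 to 0.374). Of the 16 UMIs, 12 lay in cells without a UMI of the division markers Mki67 and Top2a. They came from 6 of 8 pools, with 6 and 4 of them in single pools, and pool values ran from 0 to 54.6 CPM. These ranges overlapped all others. In the wild-type 2 h group, 4 of the 5 wells above 25000 UMIs held 14 further UMIs, 10 of them in 1 well, so that with all wells that group had 7.29 CPM and its ratio to untreated cells, with 1 UMI added, was 0.632. At 2 and 8 h the genotypes could not be distinguished at this depth.

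Tfrc, which carries transferrin-bound iron into cells and is high in dividing cells in general, was lower after 8 h of LPS in wild-type cells and lower at rest in Rad21-/- cells. Wild-type cells had 51.9 CPM (40.8 to 65, from 75 UMIs) untreated, 45.1 (33.9 to 58.8, 54 UMIs) at 2 h and 18 (12 to 26, 28 UMIs) at 8 h. Rad21-/- cells had 24.3 CPM (17.3 to 33.1, 40 UMIs), 24.0 (16.2 to 34.3, 30 UMIs) and 14.4 (9.33 to 21.3, 25 UMIs). The untreated and 2 h wild-type groups were thus the only ones above 40 CPM. The wild-type 8 h ratio was 0.347 (0.216 to 0.542), a fall past 1.5-fold. Leaving out any 1 of 11 pools took the UMIs of both groups together under 100, with the ratio at 0.306 to 0.411. The ratio at 2 h was 0.869 (0.601 to 1.25). The Rad21-/- ratios of 0.990 (0.595 to 1.63) at 2 h and 0.594 (0.345 to 1.00) at 8 h rest on fewer than 100 UMIs and were not counted.

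The Rad21-/- to wild-type ratio of Tfrc was 0.468 (0.310 to 0.696) at rest, past 1.5-fold, and 0.533 (0.329 to 0.848) at 2 h and 0.801 (0.448 to 1.43) at 8 h, below the UMI filter. Rad21-/- cells had the lower value within 8 of 8 pools at rest, with ratios of 0.188 to 0.918, within 4 of 4 at 2 h and within 4 of 6 at 8 h. The pool ranges of the genotypes overlapped at rest (0 to 40.5 CPM against 18.3 to 130) and did not at 2 h (6.46 to 39.3 against 41.4 to 62.3). With all wells the 8 h ratio was 1.42, since 24 of the 49 Tfrc UMIs of that Rad21-/- group lay in 2 wells. Ordered by level, the neighbours whose pool ranges did not overlap were wild-type cells at 2 h and untreated Rad21-/- cells.

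Transcripts of dividing cells were highest in the groups with most Tfrc but did not follow it at each step. The sum of Mki67 and Top2a was 198 and 231 CPM in those wild-type groups. It was 28.3 to 94.7 CPM in the other 4. From 0 to 2 h the sum rose in wild-type cells, while Tfrc went from 51.9 to 45.1 CPM. In Rad21-/- cells the sum fell from 94.7 to 52.9 CPM, with Tfrc at 24.3 and 24.0 CPM. At 8 h the sum was lower in wild-type than in Rad21-/- cells (28.3 against 39.8 CPM) and Tfrc higher (18 against 14.4). The Tfrc intervals overlapped in each of these pairs. Within each of the 6 groups, Tfrc had a higher level in cells with a UMI of Mki67 or Top2a than in cells without. In untreated wild-type cells it was 58 CPM (41.4 to 78.9) with and 46.3 (32.3 to 64.4) without, and in untreated Rad21-/- cells 32.5 (18.6 to 52.7) with and 20.8 (13.3 to 30.9) without. In wild-type cells at 8 h it was 29.1 (12.6 to 57.4) with and 15.6 (9.53 to 24.1) without. These intervals overlapped within each group, in Rad21-/- cells at 2 h the share of thinned cells with a Tfrc UMI ran the other way (4.88% with, 9.01% without), and the difference between genotypes at rest was present in cells without such UMIs as well. The share of cells in the cycle is known here only through these UMIs, and its part in the Tfrc differences was not tested.

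Slc11a1, the phagosomal metal transporter also known as Nramp1, showed no change past 1.5-fold in any comparison. C57BL/6 mice are known to carry an allele whose protein lacks function, and UMI counts do not tell alleles apart. In wild-type cells the level was 94.1 CPM (79.0 to 111) untreated, 96.9 (80.1 to 116.2) at 2 h and 67.5 (55.2 to 81.7) at 8 h. The Rad21-/- levels were 67.4 CPM (55.4 to 81.1), 69.7 (55.8 to 86) and 74.9 (62.6 to 89). The untreated and 2 h wild-type groups were the highest, as for Tfrc. The ratio of 8 h to untreated was 0.717 (0.551 to 0.932) in wild-type cells, and 0.644 or 0.652, past 1.5-fold, when either of 2 pools was left out. It was 1.11 (0.857 to 1.45) for Rad21-/- cells. The Rad21-/- to wild-type ratio was 0.716 (0.552 to 0.927) at rest, 0.719 (0.538 to 0.958) at 2 h and 1.11 (0.852 to 1.45) at 8 h. The level was lower without Rad21 in 6 of 8 pools at rest, in 4 of 4 at 2 h and in 2 of 6 at 8 h. Pool values of untreated wild-type cells ran from 13.7 to 202 CPM and covered the range of every other group, so that no neighbours in the order of levels were apart, while the genotypes at 2 h did not overlap (55.1 to 80.8 CPM in Rad21-/- against 86.6 to 111 in wild-type cells). The share of cells with a UMI lay between 28.5% and 44.2%, and between 18.6% and 33.8% in thinned cells. Wells above 25000 UMIs gave 119 to 158 CPM in all 6 groups, higher than the other cells of each group. The 119 CPM of untreated wild-type cells rests on 3 UMIs in 1 well. Its interval, 24.6 to 349, includes the level of the other cells.

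Slc11a2, known as DMT1, which moves ferrous iron out of endosomes after uptake by the transferrin receptor, rose past 1.5-fold with LPS in both genotypes, and no other member did. In wild-type cells the level was 26.3 CPM (18.6 to 36.1, from 38 UMIs) untreated, 58.5 (45.6 to 73.9, 70 UMIs) at 2 h and 118 (102 to 136.6, 184 UMIs) at 8 h. Without Rad21 it was 31.0 CPM (23.0 to 40.7, 51 UMIs), 56.1 (43.7 to 70.8, 70 UMIs) and 171.8 (152.8 to 192, 298 UMIs). Levels were higher at each later time in both genotypes. The ratios to untreated cells were 2.22 (1.48 to 3.39) at 2 h and 4.50 (3.16 to 6.56) at 8 h in wild-type cells, and 1.81 (1.25 to 2.65) and 5.55 (4.11 to 7.63) in Rad21-/- cells. All 4 passed 1.5-fold. Pool values at 8 h, 69.8 to 159 CPM in wild-type cells and 112.6 to 240 in Rad21-/- cells, did not overlap those of untreated cells, 8.85 to 48.7 and 21.1 to 69.9, whereas the ranges at 2 h did.

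The share of cells with a Slc11a2 UMI was 13% (9.02 to 18), 26.5% (20.2 to 33.6) and 49.4% (43.1 to 55.7) in wild-type cells at 0, 2 and 8 h. The Rad21-/- shares were 16.1% (11.9 to 21.1), 31.5% (24.9 to 38.8) and 65.3% (58.7 to 71.6). In thinned cells the shares were lower, as a share falls with depth, but kept the order: 7.33%, 15.6% and 34.4% of wild-type cells and 8.64%, 17.1% and 46.3% of Rad21-/- cells.

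Rad21-/- cells at 8 h had 1.45-fold (1.21 to 1.76) the Slc11a2 level of wild-type cells, short of the 1.5-fold limit. The ratio was 1.18 (0.758 to 1.84) at rest and 0.959 (0.679 to 1.36) at 2 h. Within pools at 8 h Rad21-/- cells were higher in 5 of 6, with ratios of 0.819 to 2.16 and a median of 1.44. The median ratio of all 5312 genes compared at 8 h was 0.19 on the log2 scale, in the same direction as the 0.54 of Slc11a2. The pool ranges overlapped between all neighbours in the order of levels.

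**Figure D4:**
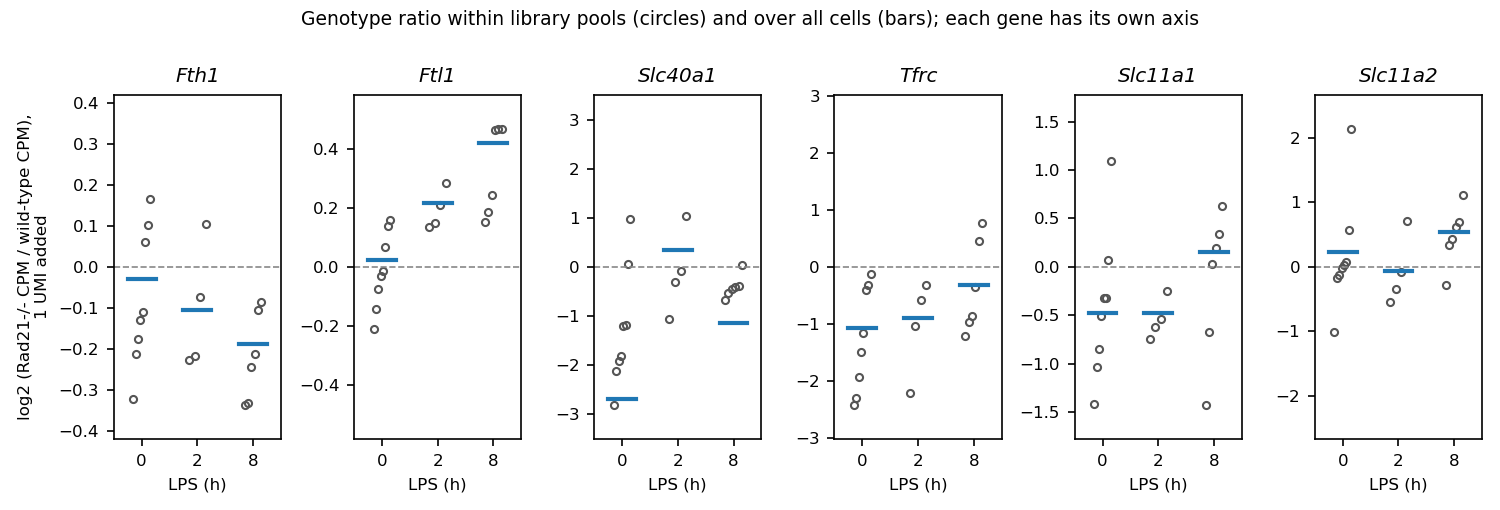
log2 ratio of the Rad21-/- to the wild-type level with 1 UMI added (vertical axis, with its own scale for each gene) by hours of LPS (horizontal axis); circles are library pools with at least 10 cells of each genotype, bars are all cells, and the dashed line marks equal levels. For Ftl1 all 10 pools at 2 and 8 h lie above the line, and for Tfrc all 12 pools at 0 and 2 h lie below it; for Slc40a1 the added UMI pulls the pool values toward the line.

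Set against all genes with at least 100 UMIs over the groups compared, the members past 1.5-fold were as follows. At 2 h in wild-type cells 1 of the 5 members that passed the filter rose (Slc11a2) and none fell, against 7.37% and 9.28% of 4765 genes. At 8 h 1 rose and 2 fell (Ftl1 and Tfrc) of 5, against 15.3% and 25.3% of 5131 genes, so that a fall of this size was common. In Rad21-/- cells 1 of 4 rose and none fell at 2 h, against 7.87% and 4.93% of 5006 genes, and likewise at 8 h, against 15.3% and 12.5% of 5775 genes. Between the genotypes at rest none was higher and 1 of 4 lower in Rad21-/- cells (Tfrc), against 5.12% and 10.2% of 5444 genes. None of the 4 that passed was past the limit at 2 h, against 10.1% higher and 9.36% lower of 4285 genes, or at 8 h, against 19.1% higher and 11.1% lower. With so few members these shares describe the 6 genes and no more. The untreated groups enter several of these comparisons, which are therefore not independent of each other.

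The other genes of iron and heme handling were read from a list of 53 genes, of which 46 were in the matrix and 23 passed the filter in at least 1 comparison. At 2 h in wild-type cells 1 of 15 rose and 3 fell, against 7.37% and 9.28% of all genes. The median was -0.30 on the log2 scale, against -0.09 for all genes. At 8 h 7 of 20 rose and 4 fell, against 15.3% and 25.3% of all genes, with a median of -0.11 against -0.17. In Rad21-/- cells 1 of 17 rose and none fell at 2 h, against 7.87% and 4.93% of all genes (median 0.07 against -0.01). At 8 h 3 of 21 rose and 5 fell, against 15.3% and 12.5% (0.07 against 0.00). Between genotypes at rest, 4 of 17 were higher and 1 lower in Rad21-/- cells, against 5.12% and 10.2% of all genes (median -0.02 against -0.02). At 2 h 4 of 15 were higher and none lower, against 10.1% and 9.36% (0.35 against 0.06). At 8 h 5 of 21 were higher and 6 lower, against 19.1% and 11.1% (0.17 against 0.19). In all 18 genes of the list were past 1.5-fold somewhere, and the 12 with the largest ratios are named below.

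The largest rises were of secreted iron-related proteins of the acute phase. Lcn2, which encodes lipocalin 2, a protein that captures bacterial siderophores, had 0 UMIs in untreated cells of either genotype, 1 and 5 UMIs at 2 h, and 1181 UMIs in wild-type and 341 in Rad21-/- cells at 8 h. Its level at 8 h was 759 CPM and 197 CPM, at least 365.6-fold and at least 107.977-fold above untreated cells when 3 UMIs per group are taken as the floor, with exact 95% lower limits of 297 and 87.3. The Rad21-/- level at 8 h was 0.259 (0.229 to 0.292) of the wild-type level, and pool ranges were apart, at 14.1 to 266 CPM against 552 to 881. Hp encodes the hemoglobin scavenger haptoglobin. It had 75.2 CPM in wild-type and 43.2 CPM in Rad21-/- cells at 8 h, and at most 1 UMI in every other group. The ratio at 8 h was 0.575 (0.424 to 0.775), with pool ranges that overlapped.

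Cp, the ferroxidase ceruloplasmin, which oxidises iron as it leaves the cell, rose in both genotypes at 8 h. Its level over the 3 times was 3.46, 3.34 and 95.8 CPM for wild-type cells and 4.85, 6.41 and 107.8 CPM for Rad21-/- cells, which gives 8 h ratios of 27.7 (11.6 to 86.5) and 22.2 (11 to 52.2). Steap4, a metalloreductase, was called as risen in Rad21-/- cells, from 4.25 to 92.8 CPM, at 21.8-fold (10.4 to 55.2). In wild-type cells it had 1.38 CPM untreated and 34.1 CPM at 8 h, a ratio of 24.6 (6.49 to 209) that was not counted because it rests on fewer than 100 UMIs. The Rad21-/- level at 8 h was 2.72-fold (1.99 to 3.79) the wild-type level. Pool ranges at 8 h overlapped between the genotypes for Cp and Steap4. Ferroportin, through which iron leaves the cell, had at most 1 UMI at 8 h, as given above.

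Among genes of uptake, Slc39a14, a zinc and iron transporter of the ZIP family, rose in wild-type cells at 8 h to 2.79-fold (1.77 to 4.53), against 2.18 (1.33 to 3.68) in Rad21-/- cells on fewer than 100 UMIs, and its Rad21-/- level at 8 h was 0.633 (0.440 to 0.905) of the wild-type level. Lrp1, the receptor that takes up heme bound to hemopexin among many other ligands, fell at 8 h to 0.311 (0.255 to 0.378) in wild-type and 0.470 (0.383 to 0.575) in Rad21-/- cells and was lower in Rad21-/- cells at rest, at 0.623 (0.535 to 0.725). Trf, transferrin itself, was higher in Rad21-/- cells at rest, at 1.84-fold (1.26 to 2.71), and at 2 h, at 1.73-fold (1.18 to 2.54), opposite in direction to its receptor Tfrc. It fell in Rad21-/- cells at 8 h to 0.475 (0.324 to 0.687), and the wild-type ratio, on fewer than 100 UMIs, was 0.583 (0.347 to 0.966). Pool ranges overlapped in each of these differences between genotypes for Slc39a14, Lrp1 and Trf. At 2 h the Rad21-/- to wild-type ratio of Lrp1 was 0.699 (0.581 to 0.840), short of 1.5-fold, but its pool ranges were apart. With all wells that ratio was 0.648, past 1.5-fold.

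In heme handling, Slc48a1, which exports heme from the phagolysosome to the cytosol, was past 1.5-fold in 6 of the 7 comparisons. It fell in wild-type cells to 0.571 (0.414 to 0.780) at 2 h and 0.410 (0.295 to 0.565) at 8 h. In Rad21-/- cells it fell to 0.498 (0.399 to 0.620) at 8 h. It was higher in Rad21-/- cells at every time, by 1.66, 2.47 and 2.01-fold. Pool ranges of the genotypes were apart at 2 h and overlapped at rest and at 8 h. Blvra, biliverdin reductase, fell at 8 h to 0.321 (0.238 to 0.428) in wild-type and 0.581 (0.466 to 0.722) in Rad21-/- cells and was 1.89-fold (1.40 to 2.58) higher in Rad21-/- cells at that time. Alas1, the first enzyme of heme synthesis, rose in wild-type cells at 8 h to 2.18-fold (1.69 to 2.83). It stood at 0.494 (0.390 to 0.623) of that level in Rad21-/- cells. Pool ranges of the genotypes at 8 h overlapped for Blvra and Alas1.

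The iron sensor Fbxl5 is part of the ligase that removes iron regulatory protein 2 when iron is plentiful. It rose in wild-type cells at 8 h to 2.08-fold (1.40 to 3.13). In Rad21-/- cells it was at 0.623 (0.439 to 0.878) of that level, with pool ranges that overlapped. Nfe2l2, which encodes NRF2, an activator of both ferritin genes and of ferroportin, rose at 2 h to 1.97-fold (1.68 to 2.31) in wild-type and 1.76-fold (1.4996 to 2.06) in Rad21-/- cells and was near its untreated level at 8 h, with log2 ratios of 0.18 and -0.16. Urod, Hmox1, Iscu, Aco1 and Hmox2 were also past 1.5-fold in at least 1 comparison. With all wells the ratio of Lrp1 between genotypes at rest was 0.675, that of Trf between genotypes at 2 h was 1.40, that of Slc48a1 in wild-type cells at 2 h was 0.730, and that of Fbxl5 between genotypes at 8 h was 0.726, each short of 1.5-fold.

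**Figure D5:**
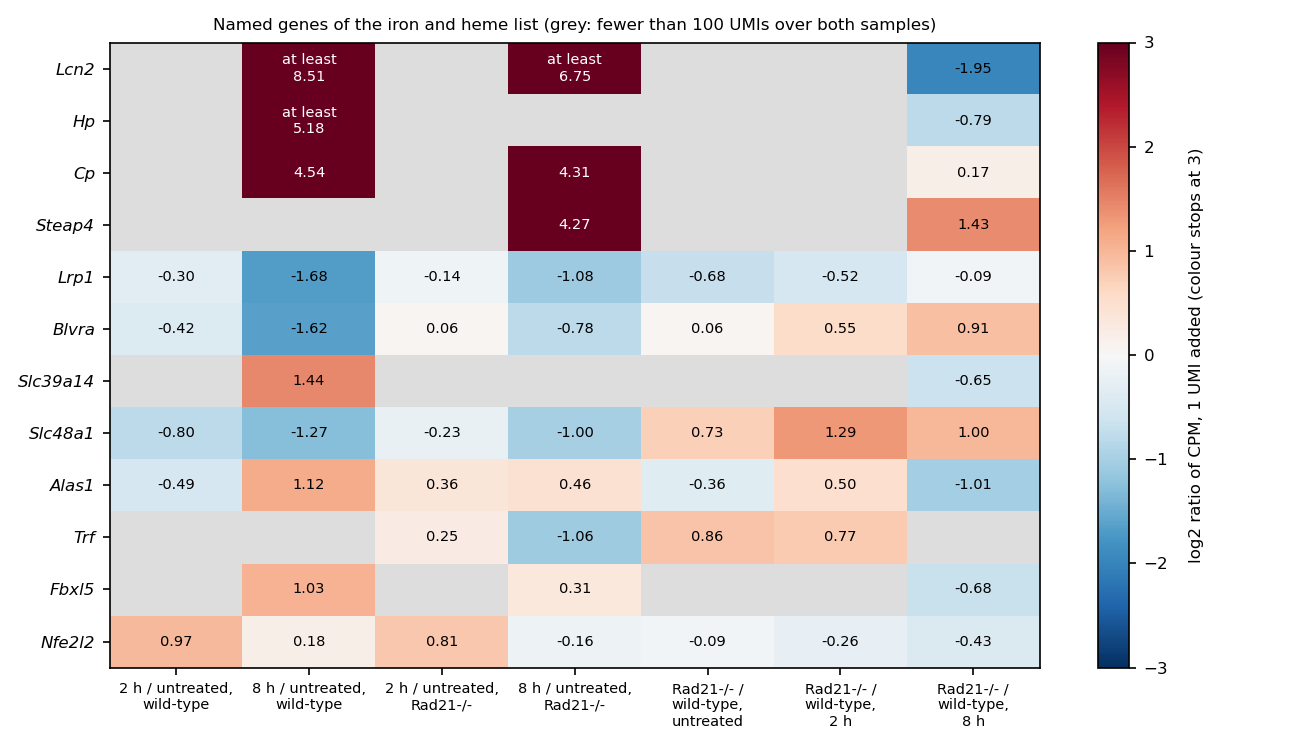
log2 ratio of CPM with 1 UMI added (colour and printed value) for the 12 named genes of the iron and heme list (rows) in the 7 comparisons (columns); grey cells had fewer than 100 UMIs over both groups, and values given as at least are against a group with 0 UMIs, with 3 UMIs as its floor. Lcn2 and Cp show deep red at 8 h in both genotypes, Slc48a1 is red in all 3 genotype columns, and Nfe2l2 is reddest at 2 h.

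Genes with the most similar pattern over the 6 groups were named for members whose level spanned at least 1 on the log2 scale, by Pearson r of log2 CPM with 1 UMI added, among 2471 genes with at least 600 UMIs. This is a description over 6 values that share samples. Tfrc ran closest to Fabp5 (r = 0.99), Alox5ap (0.99) and Cep85l (0.99). Alox5ap, the partner of 5-lipoxygenase in leukotriene synthesis, had 493, 457 and 215 CPM over time in wild-type cells and 308, 265 and 169.5 CPM in Rad21-/- cells. Slc11a2 ran closest to Ebi3 (r = 0.98), Ube2f (0.98) and Gm6977 (0.98), and Ebi3, a subunit of the cytokine IL-27, had 107, 168 and 538 CPM over time in wild-type cells and 95.9, 199 and 741 CPM in Rad21-/- cells. Slc40a1, with its 24 UMIs in all, ran closest to Sbno1 (0.97), Etfa (0.95) and Lmna (0.93). Ftl1 spanned just under 1, and with Fth1 and Slc11a1 it has no gene named.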

How the data were processed

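Single macrophages were profiled by MARS-seq in 6 samples, 1 for each genotype and time. The authors aligned the reads with GEMTools to the GRCm38.p4 genome under Gencode M8, kept unambiguous reads, collapsed UMIs at an edit distance of up to 2, removed wells by spike-in share, mapping rate and read number, and deposited raw UMI counts per gene and cell with no normalization. The submitters' processing notes also name FastQC.

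The name of a cell gave its sample and its pool. With 1 sample per group no test was run. UMIs of cells with at most 25000 UMIs were summed per group and scaled to a total of 1000000 (CPM). Sums carry exact Poisson intervals, shares exact Clopper-Pearson intervals and ratios exact conditional binomial intervals, at 95%. A gene counted as past 1.5-fold with 1 UMI added to each group and at least 100 UMIs over both. Single genes are named by 3 rules: all members, the 12 iron list genes with the largest ratio past 1.5-fold, and the 3 genes most similar to a member in pattern. Thinning drew 3800 UMIs per cell without replacement. Alternatives were all wells, thinning, means over cells, equal pool weights, leaving out each pool, CPM without ferritin and mitochondrial genes, a 2-fold limit and a filter of 50 UMIs. The ratio step was tested on simulated counts. Python 3.11.15, numpy 2.4.6, pandas 2.3.3, scipy 1.17.1 and matplotlib 3.10.9 were used. Gene positions and promoter windows are RefSeq's for GRCm38.p6, and transcripts are GENCODE M1. The members, the lists and the alternatives were chosen with earlier results of these data known.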

Additional observations from a re-analysis of the deposited data

Results flagged for a closer look

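Fth1 stood on opposite sides of its untreated level at 2 and 8 h of LPS, at ratios of 0.905 and 1.20 in wild-type cells and 0.858 and 1.08 in Rad21-/- cells. The difference between the time points was not tested, since each is 1 sample in pools of its own, and pool ranges overlapped.

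The wells above 25000 UMIs were left out of the values above. Several members had a higher value there than in the other untreated wild-type cells, but some counting intervals included that untreated level. Slc40a1 had 14.02 CPM there at 2 h in wild-type cells. Tfrc had 86.1 CPM at 2 h in wild-type cells and 67.8 CPM (43.4 to 100.8) at 8 h in Rad21-/- cells. Its untreated level of 51.9 CPM lay below the interval of the first and inside that of the second. Of the Tfrc UMIs, 57 of 86 in the first group and 18 of 24 in the second lay in 1 well. Slc11a1 had 138.2 CPM in untreated Rad21-/- cells, 149 and 142 CPM at 2 h in wild-type and Rad21-/- cells, and 158 and 127 CPM at 8 h. These values come from 2 to 5 wells per group, and whether such wells held more than 1 cell was not tested. Fth1 and Ftl1 were lower in the wells above 25000 UMIs than in the other cells of each group. For Ftl1 in untreated wild-type cells, with 1 such well, the counting interval included the level of the other cells.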

How the results depend on the processing

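Counts of members past 1.5-fold were small and moved with the settings, while no member that was past the limit changed direction under any of them. With all wells the count was 3 in wild-type cells at 2 h, 2 in Rad21-/- cells at 8 h and 3 between genotypes at 2 h, where Ftl1 was higher and Tfrc and Slc11a1 lower in Rad21-/- cells. With thinning it was 0 in wild-type cells at 2 h, 0 in Rad21-/- cells at 2 h and 0 between genotypes at rest, where fewer than 100 UMIs of Slc11a2 or Tfrc were left, and 1 between genotypes at 2 h (Slc11a1) and 1 at 8 h (Slc11a2). With means over cells it was 0 in wild-type cells at 2 h, 2 in Rad21-/- cells at 8 h and 1 between genotypes at 2 h. With equal pool weights it was 2 in Rad21-/- cells at 8 h and 2 between genotypes at rest. Without ferritin and mitochondrial genes in the total it was 2 in Rad21-/- cells at 8 h. A 2-fold limit gave 0 in Rad21-/- cells at 2 h, and a filter of 50 UMIs gave 2 in Rad21-/- cells at 8 h and 1 between genotypes at 2 h (Tfrc). Leaving out each pool gave 0 to 1 in wild-type cells at 2 h, where 5 different pools each took Slc11a2 under 100 UMIs at ratios of 1.92 to 2.25, 1 to 2 in Rad21-/- cells at 8 h, 0 to 1 between genotypes at rest, where Tfrc was lost at ratios of 0.393 to 0.556, and 0 to 1 between genotypes at 8 h, where Slc11a2 reached up to 1.51. The additional call in Rad21-/- cells at 8 h was Ftl1, at 0.619 to 0.666, except under the filter of 50 UMIs, where it was Tfrc at 0.602. In wild-type cells at 8 h the count was 2 with thinning and 2 with a 2-fold limit, which left out Tfrc and Ftl1, and without any 1 of 11 pools Tfrc went under 100 UMIs at ratios of 0.306 to 0.411. Under the alternatives 62 of 312 log2 ratios and 4 of 12 ratios of Fth1 to Ftl1 lay outside the counting interval. With all wells the median of all genes between genotypes at 2 h was -0.15, against 0.06 without the deep wells, and in wild-type cells at 2 h it was 0.11 against -0.09. No paired analysis was possible because each group is 1 sample and the labels give no replicate numbers.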
